A study of Drosophila melanogaster with 36 samples.

Results

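The daily time course of ventral lateral clock neurons (LNv) on rich food at 18 °C consists of 12 RNA-seq libraries out of the 36 in the study. It was chosen by its sample labels alone: every library with the condition code HC18, with 1 library at every second hour from ZT02 to ZT24 (ZT, zeitgeber time, counts hours on the flies' daily schedule). The food was 1.5x sucrose-yeast, kept at 18 °C. The other libraries form time courses of the same length and spacing at 25 °C, 12 on 1.5x food (HC25) and 12 on 0.5x food (LC25). The study sampled LNv neurons to see which transcripts cycle over the day under each food and temperature. Which code means which food and temperature was taken from the code's letters and digits and from the design text.

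All groups were female flies of the w1118 background, given as wild type in the labels, and all carried the reporter Pdf>mGFP, in which Pdf-Gal4 drives a membrane GFP. The Gal4 line marks the cells that were sorted, so the libraries hold the large and small LNv cells together. Age and the number of brains per library are not given in the labels. RNA was amplified with T7 RNA polymerase before sequencing. Values are TPM (a share of the library corrected for transcript length), summed from transcripts to genes. They carry no sequencing depth, so no counting error can be given. The error of every rhythm below is the scatter of the 12 libraries around a fitted curve, over 1 daily cycle, and this scatter may be technical. In sorted cells pooled in this way, a fall in the number of contributing cells and a fall in RNA per cell cannot be told apart.

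In the fly clock, CLK and CYC activate per, tim, vri and Pdp1. PER and TIM proteins enter the nucleus at night and repress CLK and CYC, and VRI and PDP1 respectively repress and activate Clk, so that Clk runs opposite to the others. The LNv are the main pacemaker neurons of the fly brain and release the neuropeptide PDF, which sets the phase of other clock neurons.

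The sorted cells were checked against marker genes. Pdf took 26.5% ± 2.23 of all TPM (SD, n = 12), and 7 LNv markers together reached 224069 to 298791 TPM. Markers of other cells summed to 18.4 to 103 TPM for glia, at most 64.2 TPM for photoreceptors, at most 10.1 TPM for muscle and 49.2 to 96.1 TPM for haemocytes. Sums were higher for fat body (84.3 to 170 TPM), transmitter synthesis of other neurons (90.7 to 145 TPM), Kenyon cells (162 to 286 TPM) and monoaminergic neurons (184 to 1000 TPM, highest at ZT10). Pxn led the haemocyte sum (median 74.1 TPM), with medians of at most 0.342 TPM for its other markers. FASN1 led the fat body sum (median 88.6 TPM), with medians of at most 3.50 TPM for the others. Ddc and Tdc2 led the monoaminergic sum (medians 234 and 91.0 TPM), ahead of DAT (13.9 TPM). There ple, Vmat and SerT had medians of 1.68, 0.931 and 0.474 TPM, though Vmat reached 54.9 TPM and SerT 22.9 TPM at their highest. The glial marker repo was listed at 0 in 1 library and did not exceed 1.35 TPM. The 5 markers of other clock neurons summed to 228 to 1221 TPM in 11 libraries and to 1952 TPM at ZT24, where CNMa stood at 535 TPM and AstC at 861 TPM. The library of ZT24 also had the lowest rank correlation with the rest (median Spearman coefficient 0.884 across genes). In 4 libraries (ZT06, ZT08, ZT10 and ZT22) the gene fmt lay between 121 and 1603 TPM, against 18790 to 84165 TPM in the other 8. The same 4 libraries held less mitochondrially encoded RNA (5.08% ± 1.68, n = 4, against 9.91% ± 2.07, n = 8) and more ribosomal protein RNA (18.2% ± 1.55 against 14.6% ± 1.27). Of these 4, 3 fall on consecutive time points, so the results that depend on them are given with and without them.

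Of 8504 genes with a mean of at least 1 TPM, 625 varied over the day as a 24 h cosine at an adjusted p below 0.05 (7.35%; limma F test on log2(TPM + 1), Benjamini-Hochberg adjustment). Unadjusted, 1569 genes had a p below 0.05. The fitted curve explained a median of 78.7% of the variance of the rhythmic genes. Amplitudes, from mean to peak on the log2 scale, ran from 0.30 to 3.37 with a median of 0.76, against a median of 0.23 over all genes tested. As a ratio of fitted peak to trough, 505 genes varied 2-fold or more, 189 at least 4-fold, 48 at least 10-fold and 9 at least 30-fold. The pseudocount of 1 understates these ratios for weakly expressed genes, and 108 of the rhythmic genes had a mean below 10 TPM. Without the 4 libraries low in fmt, 706 genes were rhythmic (8.43% of 8376 tested), of which 425 were among the 625. Without ZT24 the count was 579 (6.93% of 8360), with 545 in common.

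**Figure D1:**
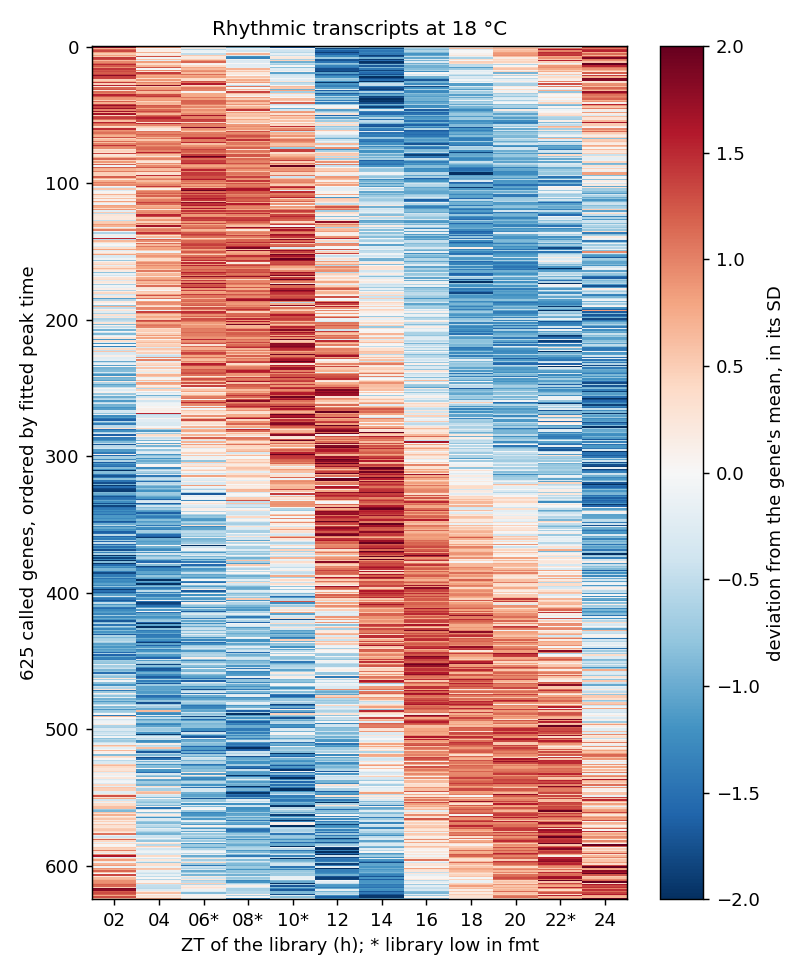
Each row is 1 of the 625 rhythmic genes, ordered by fitted peak time from the top, and each column is 1 library, labelled by its ZT in hours, with an asterisk on the 4 libraries low in fmt. Colour gives the deviation from the gene's mean log2(TPM + 1) in units of its SD, and the high values run as a diagonal band from the early to the late libraries.

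Of the 8 core clock genes 5 were rhythmic, 4 with peaks at night and Clk with a peak by day. The gene tim, whose protein partners PER, was at 34.1 TPM at its lowest, 120 TPM at the median and 684 TPM at its highest. Its values stayed below 110 TPM through ZT10, rose to 404 TPM at ZT12 and 684 TPM at ZT14, and then fell in each later library. The fitted curve gave a 13.4-fold range with a peak at ZT15.6 ± 0.282 h (SE; amplitude 1.87 ± 0.14, adjusted p = 2.38e-06, n = 12 libraries). The period gene per, which encodes the repressor itself, ran later and lower, from 5.63 TPM at ZT04 over a median of 29.6 TPM to 64.4 TPM at ZT20. Its fitted peak lay at ZT17.2 ± 0.413 h with a 6.83-fold range (adjusted p = 7.6e-05).

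The gene vri, which encodes the repressor of Clk, had the largest range of the core clock. It stood at 7.32 and 6.87 TPM at ZT02 and ZT04, at 378 TPM at ZT12, and at 19.1 TPM again at ZT24. The fit gave 45-fold and a peak at ZT14.6 ± 0.327 h (amplitude 2.75 ± 0.24, adjusted p = 9.08e-06). Pdp1, the activator of Clk, went from 131 TPM at ZT04 to 1268 TPM at ZT14 with a median of 366 TPM, an 8.17-fold fitted range with a peak at ZT16.1 (adjusted p = 3.89e-05). Clk ran opposite, with 105 to 128 TPM in the libraries from ZT02 to ZT08 and at ZT24, and 8.59 TPM at ZT14. Its fitted peak was ZT3.33 ± 0.351 h and its range 10.6-fold (adjusted p = 1.68e-05). These 5 genes were also rhythmic in every alternative fit, including the 12 fits that left out 1 library each.

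The other 3 core genes did not pass in the main fit. The photoreceptor gene cry had 454 TPM at its lowest, 743 TPM at the median and 1216 TPM at its highest, with low values from ZT12 to ZT18, higher ones from ZT20 to ZT04, and 1111 TPM at ZT10 (adjusted p = 0.086). Without the 4 libraries low in fmt its 8 remaining values followed the curve more closely, with a peak at ZT2.26 and an adjusted p of 0.00375. Leaving out ZT10 alone also let cry pass (adjusted p = 0.00362), the only 1 of the 12 fits without 1 library in which it did. The repressor gene cwo ranged from 81.3 to 187 TPM (1.52-fold, adjusted p = 0.214) and cyc, the partner gene of Clk, from 19.9 to 48.9 TPM (1.32-fold, adjusted p = 0.617). Pdf itself lay between 222123 and 296265 TPM with no time dependence past the threshold (amplitude 0.08 ± 0.19, adjusted p = 0.962).

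**Figure D2:**
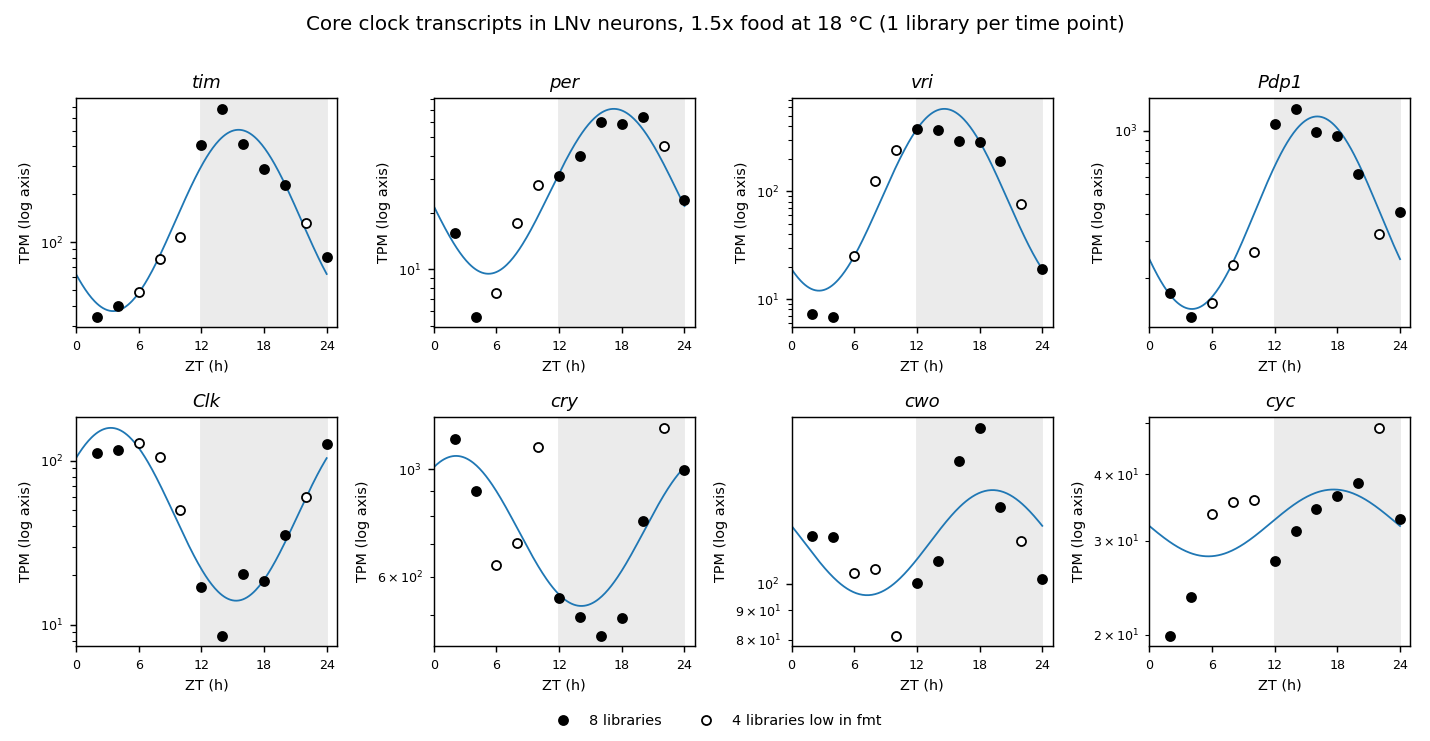
TPM of the 8 core clock genes (log axis) against ZT in hours, 1 point per library, with the fitted 24 h cosine as a line, grey shading from ZT12 to ZT24 and open points for the 4 libraries low in fmt. The genes tim, per, vri and Pdp1 are high in the shaded part and Clk is low there, whereas cwo and cyc scatter around a shallow curve.

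Of 22 clock kinases and modifiers tested, 5 were rhythmic (22.7%, against 7.35% of all genes). The median amplitude was 0.19 over the list against 0.23 over all genes. Cipc, related to a mammalian inhibitor of CLOCK, went from 11.6 TPM at ZT06 over a median of 35.8 TPM to 231 TPM at ZT16, an 18.2-fold range with a peak at ZT18.1 (adjusted p = 8.07e-07). Dyrk2, a protein kinase gene, was highest at ZT02 (366 TPM) and lowest at ZT12 (25.7 TPM), with a median of 80.3 TPM, a 12.1-fold range and a peak at ZT3.08 (adjusted p = 1.71e-06). Cipc and Dyrk2 thus lay on opposite sides of the day, and in each the low libraries formed 1 unbroken run. The gene tyf, whose product helps translate per, peaked by day (155 TPM at ZT06, 38.7 TPM at ZT18; ZT8.09, 4.48-fold, adjusted p = 3.43e-06). Usp8, a ubiquitin protease gene, peaked at ZT16.5 (4.25-fold, adjusted p = 4.82e-05). The PER kinase gene dco varied by 1.67-fold with a peak at ZT17.5 (adjusted p = 0.033), and this call was lost in 6 of the 12 fits without 1 library, with adjusted p values up to 0.134 (without ZT18).

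Peptides and receptors were rhythmic in 10 of 21 tested genes of that list (47.6%, against 7.35% of all genes), 4 with day and 6 with night peaks. The median amplitude was 0.93 over the list against 0.23 over all genes. Among the peptide genes, sNPF, short neuropeptide F, had 32.2 TPM at its lowest, 344 TPM at the median and 827 TPM at its highest. It was below 42 TPM in the 4 libraries from ZT08 to ZT14 and above 300 TPM from ZT16 on, through ZT04. The fitted range was 28.3-fold with a peak at ZT22.4 ± 0.32 h (amplitude 2.41 ± 0.20, adjusted p = 7.75e-06). Dh31, a diuretic hormone gene also used as a clock peptide, ran nearly opposite, from 335 TPM at ZT20 over a median of 1145 TPM to 2781 TPM at ZT10. Its range was 7.02-fold with a peak at ZT8.56 ± 0.332 h (adjusted p = 1e-05). Dh44, another diuretic hormone gene, was at 5.85 to 15.5 TPM in most libraries and at 35.0 to 37.2 TPM from ZT14 to ZT18 (4.18-fold, ZT17.1, adjusted p = 0.00251).

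Among the receptor genes, CCHa1-R, the receptor of CCHamide-1, fell from 94.4 TPM at ZT02 to 1.42 TPM at ZT14 and rose again in each later library to 140 TPM at ZT24. Its fitted range was 26.0-fold, with a peak at ZT1.58 ± 0.345 h (adjusted p = 1.41e-05). AstC-R2, an allatostatin C receptor gene, was at 31.2 to 39.5 TPM from ZT04 to ZT12 and at 108 to 165 TPM from ZT14 to ZT22 (5.35-fold, ZT18.8, adjusted p = 1.89e-05). Dh31-R, the receptor gene of the peptide Dh31, went from 24.6 TPM at ZT02 to 180 TPM at ZT12 (4.67-fold, ZT14.1, adjusted p = 5.79e-05), so that its fitted peak followed that of its ligand gene by several hours. The PDF receptor gene Pdfr had 27.7 TPM at ZT04, a median of 184 TPM and 1010 TPM at ZT12. Its cosine fit gave 9.82-fold and ZT15.3 (adjusted p = 0.013), a call lost without ZT04 (adjusted p = 0.0599) and without the 4 libraries low in fmt (0.0602).

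SPR, the sex peptide receptor gene, which also answers to myoinhibitory peptides, followed the cosine closely, from 18.1 TPM at ZT10 to 64.1 TPM at ZT22 (3.03-fold, ZT20.4, adjusted p = 7.59e-05). The neuropeptide F receptor gene NPFR was at 60.5 and 75 TPM at ZT10 and ZT12 and at 6.72 to 30.7 TPM elsewhere (6.53-fold, ZT9.83, adjusted p = 0.00164). The receptor gene sNPF-R varied 2.76-fold with a peak at ZT10.2, far from the peak of sNPF (adjusted p = 0.0317), and this call was lost in 10 of the 12 fits without 1 library. Of the 10 rhythmic genes of the list, 8 also passed without the 4 libraries low in fmt and 9 without ZT24.

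**Figure D3:**
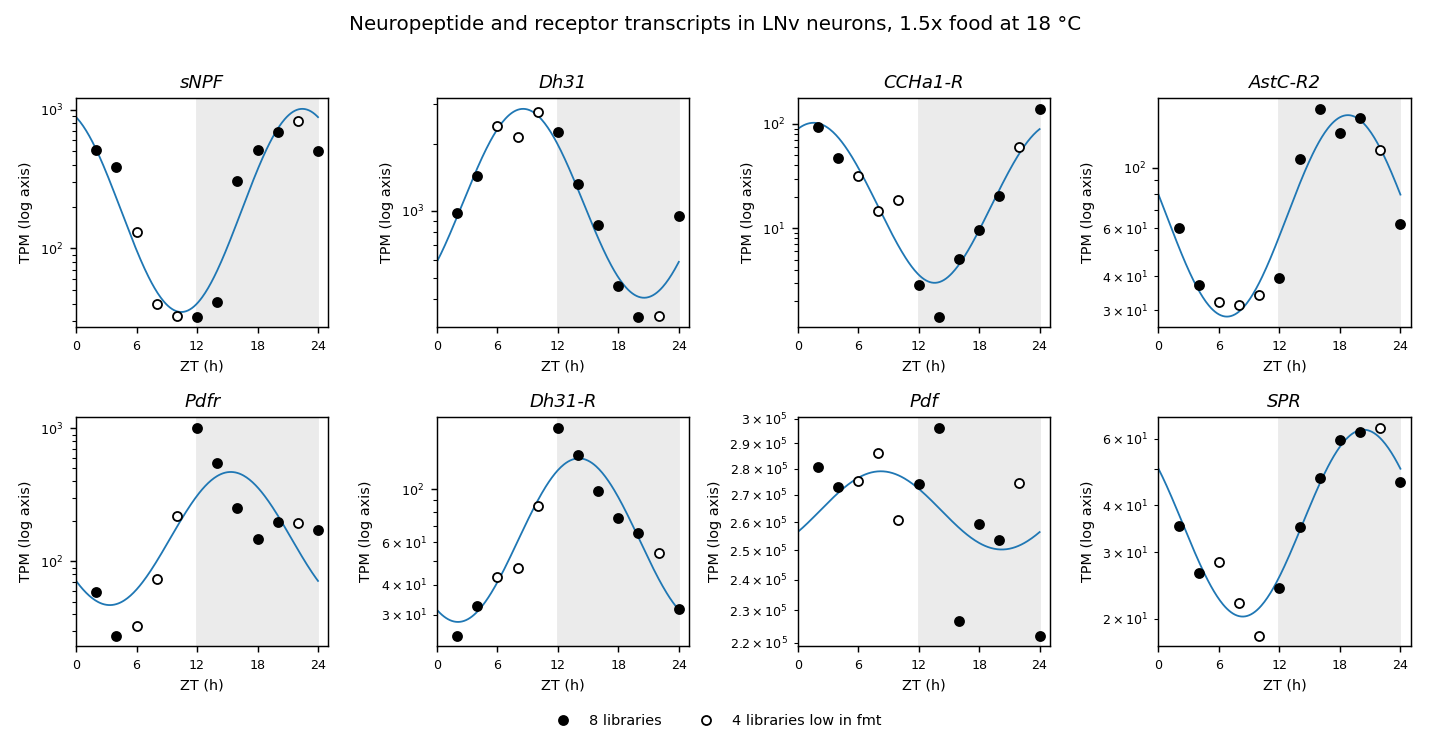
TPM (log axis) of 8 peptide and receptor genes against ZT in hours, 1 point per library, with the fitted 24 h cosine as a line, grey shading from ZT12 to ZT24 and open points for the 4 libraries low in fmt. sNPF is lowest where Dh31 is highest, Pdfr and Dh31-R have their highest library at ZT12, and Pdf stays between 222123 and 296265 TPM.

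In peptide processing and release 3 of 18 genes were rhythmic (16.7%, against 7.35% of all genes), all with day peaks. The prohormone convertase gene amon went from 454 TPM at ZT22 to 1014 TPM at ZT06 (2.38-fold, ZT7.25, adjusted p = 0.000109). Rim, an active zone gene, peaked at ZT7.83 (1.86-fold, adjusted p = 0.00228) and the synaptotagmin gene Sytbeta at ZT9.56 (2.73-fold, adjusted p = 0.00231). Of 17 potassium channel genes 3 were rhythmic (17.6%, against the same 7.35%). The inward rectifier gene Irk1 was at 3.92 to 9.23 TPM from ZT02 to ZT08 and at ZT24, and at 72.2 TPM at ZT14 (15.5-fold, ZT15.7, adjusted p = 9.08e-06). The voltage-gated channel gene Shab ran by day, from 37.3 TPM at ZT18 to 127 TPM at ZT06 (3.36-fold, ZT8.81, adjusted p = 3.38e-05). Shaw, another voltage-gated channel gene, peaked at ZT16.7 with a small range (1.73-fold, adjusted p = 0.0136). The list of 11 sodium, calcium and leak channel genes held 1 call, the sodium channel gene para (1.63-fold, adjusted p = 0.0451), which was lost in 9 of the 12 fits without 1 library and without the 4 libraries low in fmt (adjusted p = 0.201).

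Of 27 transmitter receptor genes 6 were rhythmic (22.2%, against 7.35% of all genes), 2 by day and 4 by night. GABA-B-R3, a metabotropic GABA receptor gene, was at 87.5 and 95.7 TPM at ZT10 and ZT12 and at 8.76 TPM at ZT24 (7.73-fold, ZT9.86, adjusted p = 0.000153). The serotonin receptor gene 5-HT1A was at 8.52 to 11.3 TPM from ZT02 to ZT10 and at 24.2 to 38 TPM from ZT12 to ZT20 (3.43-fold, ZT16.3, adjusted p = 0.00282). The dopamine receptor gene Dop1R1 was highest at ZT20 with 26.8 TPM (2.80-fold, ZT19.9, adjusted p = 0.0014).

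Adhesion genes of the dpr, DIP and beat families encode paired surface proteins of synaptic partners. They were rhythmic in 14 of 37 cases (37.8%, against 7.35% of all genes), 4 by day and 10 by night. The median amplitude of the list was 0.41. Without the 4 libraries low in fmt 14 passed (8.43% of all genes in that fit), of which 10 were among the 14 of the main fit. The calls of beat-IIb, dpr2, dpr15, DIP-kappa and dpr3 were lost in 10, 9, 6, 3 and 2 of the 12 fits without 1 library. Those of dpr10 and dpr12 were lost in 1 each. DIP-gamma had the smallest p, from 7.73 TPM at ZT20 over a median of 26.6 TPM to 129 TPM at ZT06 (14.4-fold, ZT8.33, adjusted p = 2.16e-06). DIP-beta was at 436 and 468 TPM at ZT12 and ZT14 and at no more than 259 TPM elsewhere (4.44-fold, ZT13.6, adjusted p = 0.000655). DIP-iota was the night example, at 0.329 to 1.77 TPM from ZT04 to ZT12 and at 12.5 to 15.2 TPM from ZT16 to ZT20 (9.68-fold, ZT19.6, adjusted p = 0.00136), though it did not pass without the 4 libraries low in fmt (0.0606). The gene dpr11 peaked at ZT5.96 (2.79-fold, adjusted p = 0.000692). Members of these families with shared sequence could exchange reads in the quantification.

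Genes known to follow neuronal activity were rhythmic in 4 of 8 cases, against 7.35% of all genes. The kinase gene meng was highest at ZT02 (683 TPM) and lowest at ZT18 (24.6 TPM), a 16.1-fold range with a peak at ZT5.40 (adjusted p = 0.000195). CG13054 had the opposite phase, with 147 TPM at ZT04, a median of 374 TPM and 1544 TPM at ZT14 (9.81-fold, ZT15.5, adjusted p = 8.55e-07). The nuclear receptor gene Hr38 was low throughout, at 1.50 to 13.9 TPM, with its highest libraries at ZT02 and ZT24 (3.77-fold, ZT2.43, adjusted p = 0.00764). Cdc7 peaked at ZT8.01 (5.43-fold, adjusted p = 7.4e-05).

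Rhythmic genes of the one-carbon, glycolysis and TOR lists all peaked by day. Nmdmc, a mitochondrial enzyme of folate one-carbon metabolism, had the smallest p of all genes. It went from 11.4 TPM at ZT20 over a median of 119 TPM to 489 TPM at ZT10, and its 4 libraries from ZT04 to ZT10 (371 to 489 TPM) stood above all others. The range was 44.2-fold with a peak at ZT7.07 ± 0.182 h (amplitude 2.73 ± 0.13, adjusted p = 6.96e-08). It was the only rhythmic gene of 9 in the one-carbon and serine list (11.1%, against 7.35% of all genes). In glycolysis and trehalose metabolism 5 of 15 genes were rhythmic (33.3%, against 7.35% of all genes), all by day. Ldh, lactate dehydrogenase, went from 3.97 TPM at ZT20 over a median of 28.1 TPM to 109 TPM at ZT06 (10.4-fold, ZT10.0, adjusted p = 0.00372). It did not pass without the 4 libraries low in fmt (0.0789), of which 3 are its highest libraries. The glyceraldehyde phosphate dehydrogenase genes Gapdh1 and Gapdh2, Pgi and Tpi peaked between ZT7.58 and ZT9.88 with ranges from 1.96-fold to 2.77-fold. The calls of Gapdh1, Pgi and Tpi were lost in 3, 5 and 8 of the 12 fits without 1 library, with adjusted p values up to 0.103. Their highest library was ZT10 in each case, and that library is among the 4 low in fmt. After rescaling the libraries by the median ratio over genes, 11 glycolytic genes were rhythmic (8.83% of all genes passed in that fit). Without those 4 libraries 4 were (8.43% of all genes), of which 1 was among the 5. The part of library composition in these counts was not tested.

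Of 16 genes that restrain TOR or belong to insulin signalling 3 were rhythmic (18.8%, against 7.35% of all genes), all by day. Thor, a translational repressor downstream of TOR, went from 207 TPM at ZT18 to 954 TPM at ZT06 (3.38-fold, ZT6.87, adjusted p = 0.000129), and chrb, an inhibitor of TOR, from 387 TPM at ZT22 to 1757 TPM at ZT12 (3.05-fold, ZT8.76, adjusted p = 0.000781). The related gene scyl (1.90-fold, adjusted p = 0.0451) lost its call in 9 of the 12 fits without 1 library. Among the 20 genes of smallest p, JhI-21, an amino acid transporter gene, stood at 398 TPM at ZT10 and 27.0 TPM at ZT22 (16.1-fold, ZT8.45, adjusted p = 2.27e-06), and MFS3, a major facilitator transporter gene, at 437 TPM at ZT10 and 33.3 TPM at ZT24 (9.36-fold, ZT11.2, adjusted p = 3.89e-06).

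Nuclear genes of mitochondria peaked mostly by night where they passed. Of 73 mitochondrial ribosomal protein genes 9 were rhythmic (12.3%, against 7.35% of all genes), all by night. The smallest p was that of mRpL20, from 39.3 TPM at ZT10 to 97.0 TPM at ZT22 (2.31-fold, ZT21.8, adjusted p = 0.001). The calls of mRpL18, mRpL3, mRpL40 and mRpL41 were lost in 11, 9, 9 and 9 of the 12 fits without 1 library. The count was 15 without the 4 libraries low in fmt (8.43% of all genes passed in that fit), with 6 of the 9 among them, and 22 with the mitochondrially encoded share as a covariate (8.73% of all genes). Of 72 nuclear genes of the respiratory chain 5 were rhythmic (6.94%, close to the 7.35% of all genes), with COX5B first (1.66-fold, ZT0.156, adjusted p = 0.00879). That count moved to 13 without the 4 libraries low in fmt, with 2 of the 5 among them, to 11 after median ratio rescaling and to 3 without ZT24. The calls of ND-MNLL, ND-B17.2 and ND-MWFE were lost in 10, 9 and 6 of the 12 fits without 1 library. The mitochondrially encoded share was itself lower in the 4 libraries low in fmt (5.08% against 9.91%), and its part in these counts was not tested. Of the 13 mitochondrially encoded genes 0 passed in limma, 0 of them at an unadjusted p below 0.05, with a median amplitude of 0.45.

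Several lists held no rhythmic genes at 18 °C, and others held 1 or 2. In limma 0 genes passed among 17 heat shock proteins and co-chaperones, 8 CCT chaperonin subunits, 18 genes of the unfolded protein response, 19 splicing factors, 26 translation initiation factors, 18 core autophagy genes, 9 cold and temperature response genes, 8 antimicrobial peptides, 86 cytosolic ribosomal proteins and 6 genes of axon remodelling. With 7.35% of all genes passing, 0 calls in a list of 6 to 26 genes is not read as a lack of rhythm. In the same way, 1 or 2 calls in the lists of 17 to 35 genes below are not read as a low or high share. At an unadjusted p below 0.05 the unfolded protein list had 4 genes, the splicing and axon lists 2 each, the heat shock, initiation factor, autophagy and antimicrobial lists 1 each, and the CCT, cold and ribosomal protein lists 0. The smallest adjusted p values in these lists were 0.0904 for the mitochondrial chaperone gene Hsc70-5, 0.0959 for Atg10 and 0.0968 for the splicing factor gene ps. In the alternatives run on the lists, the chaperone list reached 1 call, the unfolded protein list 2, the axon list 1 and the initiation factor list 1. Median amplitudes in these lists ran from 0.11 for cytosolic ribosomal proteins to 0.27 for axon remodelling, and the antimicrobial peptides reached 0.56 without a call. The co-chaperone gene Stip1 ranged from 46.6 to 80.7 TPM (1.33-fold, adjusted p = 0.396). Of 18 aminoacyl-tRNA synthetase genes 1 was rhythmic (IleRS), of 17 antioxidant and glutathione genes 1 (Gclc, a subunit of glutamate-cysteine ligase, 4.30-fold, ZT21.3, adjusted p = 0.00152), of 19 vacuolar ATPase genes 2 (10.5%) and of 35 proteasome genes 2 (5.71%), against 7.35% of all genes. Of the vacuolar ATPase genes, VhaAC45 lost its call in 11 of the 12 fits without 1 library and Vha36-3 in 1. Of the proteasome genes, Prosalpha1 was listed near 0 in most libraries and is uncertain.

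Among markers of other cells, 2 of 6 monoaminergic genes and 2 of 6 Kenyon cell genes were rhythmic in the sorted cells (33.3% each, against 7.35% of all genes). Tdc2, tyrosine decarboxylase, went from 21 TPM at ZT18 over a median of 91.0 TPM to 288 TPM at ZT10 (9.49-fold, ZT8.69, adjusted p = 5.54e-05). Ddc, dopa decarboxylase, went from 129 TPM at ZT24 over 234 TPM to 711 TPM at ZT06 (4.86-fold, ZT8.02, adjusted p = 0.000153). Both had their 3 highest libraries from ZT06 to ZT10. The Kenyon cell markers were rn (2.14-fold, ZT16.6, adjusted p = 0.0217) and the octopamine receptor gene Oamb (2.40-fold, ZT2.94, adjusted p = 0.0468), whose calls were lost in 5 and 9 of the 12 fits without 1 library. The lipid synthesis gene FASN1, listed as a fat body marker, peaked at ZT7.64 (2.24-fold, adjusted p = 0.0061) and did not pass without the 4 libraries low in fmt (0.211). Of 5 glial, 4 photoreceptor, 2 muscle, 1 haemocyte, 4 transmitter synthesis and 5 other clock neuron markers tested 0 passed in limma, and 1 glial and 1 transmitter synthesis marker had an unadjusted p below 0.05.

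The genes of smallest p included several without a described role here. CG31183 was at 0.163 to 1.48 TPM from ZT02 to ZT10 and at 55.2 TPM at ZT16 (61.2-fold, ZT17.2, adjusted p = 1.13e-06). CG34325 had the opposite course, from 110 TPM at ZT04 to 1.08 TPM at ZT16 (52.6-fold, ZT4.56, adjusted p = 8.55e-07). CG12290 peaked between them in the evening, at 375 TPM at ZT12 against 10.2 TPM at ZT02 (33.2-fold, ZT14.2, adjusted p = 1.13e-06). CG42808 had the largest fitted range of the genes with a mean of at least 10 TPM, from 552 TPM at ZT06 to 0.356 TPM at ZT22 (107-fold, ZT7.71, amplitude 3.37 ± 0.44, adjusted p = 0.000471). CG31675 (80.7-fold, ZT7.69) and CG9338 (71.9-fold, ZT8.77) shared its phase, with 135 and 309 TPM at ZT08.

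In windows of 3 h from ZT0, the rhythmic genes numbered 34, 50, 145, 75, 64, 99, 104 and 54. The window from ZT6 to ZT9 held 23.2% of them, against 10.9% of the fitted peaks of all genes tested. The windows from ZT15 and ZT18 held 15.8% and 16.6%, against 17.3% and 14.5% of all genes. The first window held CCHa1-R and CG13950, the second CG34325, meng and CG34155, and the largest one Nmdmc, CG42808 and CG31675. The evening windows held vri and CG12290 (ZT12 to ZT15) and CG31183, CG34417 and CG14082 (ZT15 to ZT18). The windows of the late night held Scp2, Cipc and CG6983 (ZT18 to ZT21) and sNPF, CG13229 and CG13053 (ZT21 to ZT24). By day (ZT0 to ZT12) 304 genes peaked, and 321 by night. Median amplitudes differed little between windows, from 0.70 at ZT21 to ZT24 to 0.93 at ZT3 to ZT6.

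The size of the day group depended on the 4 libraries low in fmt, 3 of which lie at ZT06 to ZT10. Without them the windows held 41, 41, 74, 60, 110, 161, 128 and 91 genes, and the share with day peaks went from 48.6% to 30.6%. Of the 145 genes between ZT6 and ZT9, 69 were still rhythmic in those 8 libraries. Of the 104 between ZT18 and ZT21, 51 were. Leaving out those 4 libraries also leaves no time point between ZT04 and ZT12, where the ZT6 to ZT9 genes peak. A lost call or a lower day share there cannot be assigned to library composition or to the missing time points. With the level of fmt as a covariate the day share was 36.8% of 913 genes, and after median ratio rescaling it was 54.6% of 751 genes. The HC25 and LC25 libraries fitted alone gave 38 of 274 and 122 of 446 genes in the window from ZT6 to ZT9.

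**Figure D4:**
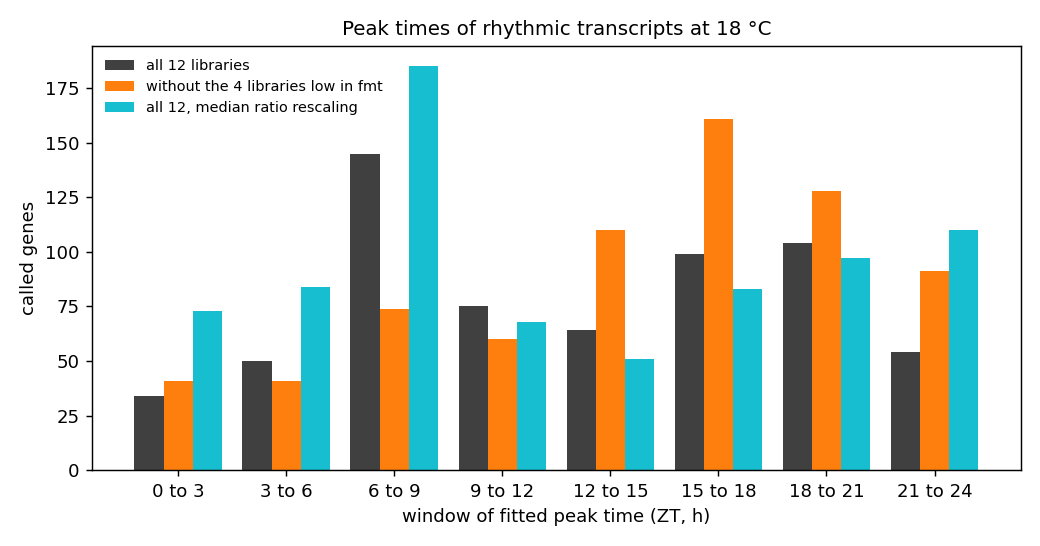
Number of rhythmic genes (bars from 0) by 3 h window of fitted peak time, for all 12 libraries, without the 4 libraries low in fmt, and for all 12 after median ratio rescaling. The window from ZT6 to ZT9 holds 145, 74 and 185 genes, and the window from ZT15 to ZT18 holds 99, 161 and 83.

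The shape of the rhythms was read from the libraries, in genes chosen by a cosine fit, which itself favours even courses. Of the 625, 180 had exactly 6 libraries above the midpoint between trough and peak on the log2 scale (28.8%, against 17.6% of all genes tested), 113 had 5 and 132 had 7. A narrow peak, with 3 libraries or fewer above the midpoint, occurred in 34 genes (5.44%, against 13.1% of all genes). For 386 genes the highest library lay within 2 h of the fitted peak, and for 239 it lay farther away. A 12 h component beside the 24 h curve passed in 4 of 8504 genes (0.047%; 1150 at an unadjusted p below 0.05). For vri the component (amplitude 0.86, adjusted p = 0.00116) went with a broad top, in which 8 libraries from ZT08 to ZT22 were above the midpoint. For Pdfr (1.18, adjusted p = 0.00116) it went with a sharp rise from 219 TPM at ZT10 to 1010 TPM at ZT12 and a slow fall.

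CG7272 was the narrowest of the 4, at 141, 307 and 233 TPM from ZT10 to ZT14 and at 54.5 TPM or less in the other 9 libraries (1.20, adjusted p = 0.00116). Sidpn had a peak of 113 TPM at ZT12, a low of 27.2 TPM at ZT06 and a second low of 8.07 TPM at ZT22 (0.95, adjusted p = 0.00704). The activity-regulated gene Arc1 had 2 tops, 388 TPM at ZT06 and 176 TPM at ZT20, and neither its 24 h curve (adjusted p = 0.642) nor its 12 h component (adjusted p = 0.107) passed. Without ZT12 the number of genes with a 12 h component was 9, and without the 4 libraries low in fmt it was 5, with 2 in common.

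The 25 °C libraries are separate samples and show the same genes without having been used for the calls at 18 °C. Of 620 rhythmic genes of 18 °C measured in HC25, 217 were also rhythmic there (35.0%; 3.1% of all genes passed in HC25), and 534 had a fitted peak within 3 h of that at 18 °C. In LC25 it was 318 of 616 (51.6%; background 5.3%), with 560 within 3 h. The authors' deposited table of BooteJTK, a rank test for rhythms, on the 25 °C libraries passed 402 of 604 (66.6%; background 10.8%), and its phase lay within 3 h of the fitted peak for 416 of the 604 (68.9%). The share of all genes tested with peaks within 3 h was not computed. Read from the other side, 79.5% of the rhythmic genes of HC25, 71.9% of those of LC25 and 47.3% of those in the authors' deposited table passed at 18 °C. Of all genes tested, 7.35% passed at 18 °C. A set of 180 genes passed in all 3 time courses, and 30 genes passed at 18 °C with an adjusted p of 0.5 or more in both others, which does not show that they did not cycle there.

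A test of the rhythm difference between 18 °C and the mean of both 25 °C courses passed for 2 of 8649 genes (0.0231%; 227 at an unadjusted p below 0.05). The HC25 library of ZT06 stood apart, with Pdf at 7.68% of TPM (19.3% to 28.8% in the other 11 of HC25) and 711 TPM of glial markers. That of ZT08 had 1196 TPM of glial markers. Without the HC25 library of ZT06 the count was 9. In LC25, the library of ZT18 had 1035 TPM of photoreceptor markers (23.3 to 144 TPM in the others). That of ZT22 had the GFP reporter at 4807 TPM (13500 to 30876 TPM in the others). No fit without these LC25 libraries was run. Temperature differs from both reference courses, and food differs from LC25 only. The gene hoe2, related to the mammalian pigment gene OCA2, went at 18 °C from 15.7 TPM at ZT02 over a median of 55.3 TPM to 141 TPM at ZT12. At 25 °C it was already at 103 TPM (HC25) and 83.9 TPM (LC25) at ZT02. Its peak at ZT13.4 was 3.86 ± 0.679 h later than the 25 °C reference (size of the difference 1.09 ± 0.16 on the log2 scale, adjusted p = 0.00227). For hoe2 that reference averages unlike courses. HC25 had its highest library at ZT12 (132 TPM), the same time as at 18 °C, and LC25 at ZT06 (177 TPM). Scp2, a calcium-binding protein gene, was high for longer at 18 °C, with 484 to 621 TPM from ZT18 to ZT22 and 251 TPM at ZT02. Its fitted peak was 3.60 ± 0.559 h later (1.51 ± 0.24, adjusted p = 0.00808). Its call was lost without ZT10 (adjusted p = 0.0672), without the 4 libraries low in fmt (0.439), against HC25 alone (0.177) and against LC25 alone (0.0530). The call of hoe2 was lost against HC25 alone (0.177) and passed in the other alternatives run (0.000209 to 0.0272).

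The other 3 named genes had the next smallest p among genes with a mean of at least 10 TPM. The gene uncNacbeta was at 5.76 to 11.5 TPM from ZT02 to ZT12 and at ZT24 at 18 °C, with 52.8 TPM at ZT16, and neither 25 °C course passed for it (difference 1.17 ± 0.21, adjusted p = 0.0531). HmgZ, an HMG box gene, had a smaller rhythm at 18 °C (2.34-fold, ZT20.6) than in the 25 °C reference (amplitude 0.61 against 1.19), with a peak 2.31 ± 0.771 h later than that reference (adjusted p = 0.0531). Tsp42Eo, a tetraspanin gene, did not pass at 18 °C (adjusted p = 0.397) and passed in LC25 (adjusted p for the difference 0.155).

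**Figure D5:**
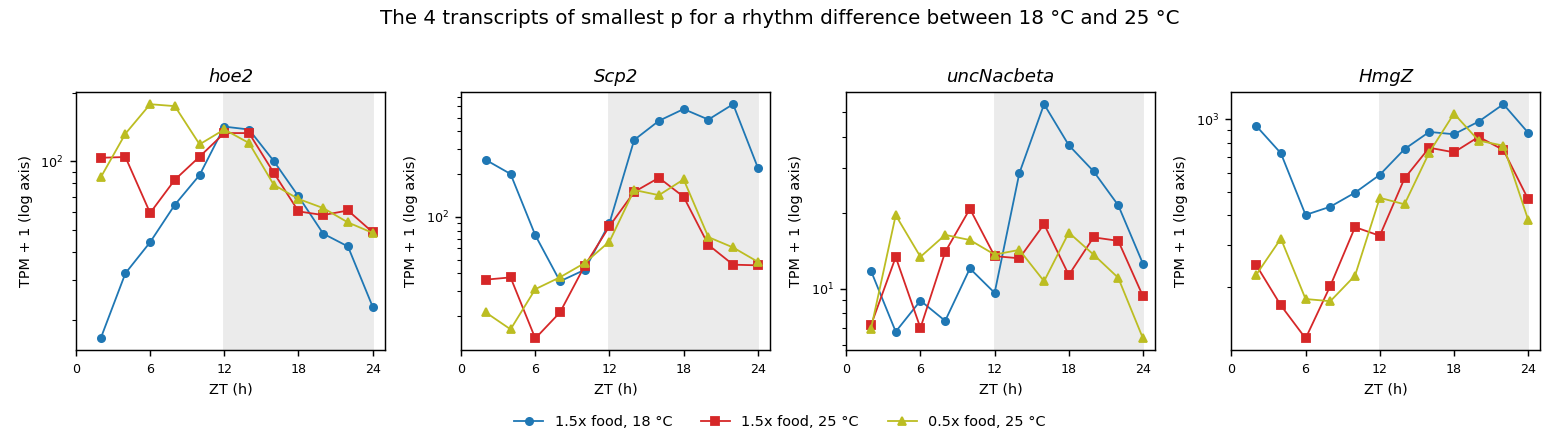
TPM + 1 (log axis) against ZT in hours for the 4 genes of smallest p for a rhythm difference with a mean of at least 10 TPM, 1 point per library, in the HC18 (blue circles), HC25 (red squares) and LC25 (olive triangles) time courses, with grey shading from ZT12 to ZT24. At 18 °C hoe2 starts at 15.7 TPM and rises to ZT12, Scp2 stays high to ZT22, and uncNacbeta peaks at ZT16 with 52.8 TPM.

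Peak times at 18 °C were also read for 197 genes chosen by the 25 °C libraries alone, as genes rhythmic in both 25 °C courses. Of these, 180 were rhythmic at 18 °C (against 7.35% of all genes), 192 peaked within 3 h of their 25 °C time, and 141 peaked later. The median shift was 0.56 h later, with the middle 50% of genes between -0.0919 and 1.22 h. No test of this shift over genes, or of its difference between times of day, was run. Of 34 genes with a 25 °C peak between ZT6 and ZT9, 33 were later at 18 °C (median 1.00 h), and of 32 between ZT3 and ZT6, 27 were (0.898 h). Of 22 between ZT12 and ZT15, 12 were later (0.11 h), and of 56 between ZT15 and ZT18, 32 were (0.192 h). Among these 56, tim, Pdp1 (-0.523 h) and per were earlier at 18 °C. The core clock did not move 1 way, as Clk, with a 25 °C peak at ZT2.53, was later (0.806 h). Without the 4 libraries low in fmt the shift of Clk was -0.333 h. Of 32 between ZT18 and ZT21, 23 were later, with the largest median of any window (1.06 h). The other windows held 9 genes (ZT0 to ZT3, 0.736 h), 6 genes (ZT9 to ZT12, 0.933 h) and 6 genes (ZT21 to ZT24, -0.0539 h).

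Without the 4 libraries low in fmt, 32 of the 34 genes were still later (0.96 h), whereas the ZT12 to ZT15 genes were mostly earlier (4 of 22 later, median -0.895 h) and the median of all 197 was 0.243 h. Among the same genes LC25 peaks lay a median of 0.255 h before those of HC25 (LC25 minus HC25, -0.255 h), and by window this difference between the 25 °C courses ran from -0.863 h (ZT9 to ZT12) to 1.08 h (ZT0 to ZT3). The median amplitude was 1.09 at 18 °C and 1.17 at 25 °C, where it took part in choosing the genes, so nothing is read from the difference. Ldh (3.51 ± 0.75 h later), the insulin-like peptide gene Ilp3 (3.10 ± 0.805 h), sNPF (1.47 ± 0.582 h) and Nmdmc (1.36 ± 0.435 h) were among the later genes, and tim (-0.654 ± 0.451 h), per (-0.562 ± 0.675 h) and vri (-0.435 ± 0.505 h) among the earlier ones. Without the 4 libraries low in fmt the shift was -1.37 h for tim, -0.0147 h for per and 0.274 h for vri, which turned later, and it stayed later for Ldh (4.47 h), Ilp3 (2.81 h), sNPF (1.39 h) and Nmdmc (1.31 h). The adjusted p of the difference was above 0.2 for each of these 7, so no single shift among them passed.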

How the data were processed

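LNv RNA was profiled in 36 libraries, of which the 12 HC18 libraries are described here. The deposited table gives TPM per transcript, made by the authors with kallisto per the submitters' processing notes; its version, transcript set and genome build, and whether strand was used, were not given in the sources used here. TPM of each library sum to 1000000, so depth is unknown and a gene that takes a larger share lowers all others. The authors' deposited BooteJTK table gives a mean TPM, a score, a phase and p-values for the 25 °C libraries.

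Transcripts were matched to genes by the names in the Ensembl annotation (30246 of 30485; the 239 others held 0.145% of TPM) and summed; 2 reporter sequences were kept out. Genes with near-identical copies or overlaps are uncertain. With limma 3.58.1 (R 4.3.3, eBayes with a trend), log2(TPM + 1) of genes with a mean of at least 1 TPM was regressed on a 24 h cosine and sine (9 residual degrees of freedom), then with 12 h terms added, and over 36 libraries for differences between conditions. P-values were Benjamini-Hochberg adjusted over all genes tested, at 0.05. The code was tested on simulated data. Peak errors are standard errors from the fit. HC25 and LC25 were also fitted alone.

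The time course, gene lists and tests were chosen with earlier results of these data known. Genes named are the core clock, Pdf, Stip1 and fmt, the 20 of smallest p, the 10 of largest amplitude, 3 per peak window (mean of at least 10 TPM for these), up to 4 per list, and 5 each of the 12 h and difference tests. Other called list members, and the genes given as examples of shifts, were added after their values were seen. Alternatives varied the pseudocount, filter, scaling, covariates and libraries used.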

Additional observations from a re-analysis of the deposited data

Results flagged for a closer look

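The rhythm of hoe2 at 18 °C differed from the mean of both 25 °C time courses by 1.09 on the log2 scale (limma adjusted p = 0.00227), and that of Scp2 by 1.51 (adjusted p = 0.00808). Both were singled out because the test of the difference itself passed. Neither passed against HC25 alone, the course on the same food (adjusted p = 0.177 for each). Scp2 also did not pass against LC25 alone (0.0530) or without the 4 libraries low in fmt (0.439). The cause of the differences was not tested.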

How the results depend on the processing

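The count of 625 rhythmic genes was 613 with a pseudocount of 0.1, 510 without a filter, 567 with a minimum of 10 TPM, 751 after median ratio rescaling (log2 factors of -0.26 to 0.22) and 477 in the joint fit, and 447 (without ZT18) to 667 (without ZT22) without 1 library. The core clock count was 5 or 6 throughout, with 5 to 6 without 1 library. After median ratio rescaling the windows from ZT0, ZT3 and ZT21 held 73, 84 and 110 genes. Without the 4 libraries low in fmt those from ZT6, ZT12, ZT15 and ZT21 held 74, 110, 161 and 91. The 12 h count of 4 was 3 to 9 without 1 library (9 without ZT12). The difference count of 2 was 1 to 5 without 1 library (1 without ZT10, 5 without ZT06), 7 after median ratio rescaling, 1 without the 4 libraries low in fmt, 9 without the HC25 library of ZT06, 0 against HC25 alone (316 at an unadjusted p below 0.05) and 1 against LC25 alone; the cause was not tested. For single genes, 4961 alternative values stayed on the same side of the threshold, 343 no longer passed and 60 newly passed. Where either fit passed, no 24 h peak time moved by more than 6 h. Peak moves of genes that passed in neither fit, and of the 12 h and difference tests, were not checked. The log2 fmt covariate, the list counts under alternatives, the reporter fits and the peak shifts were added after seeing the data. With TPM, the depth behind a low value is unknown.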

Other observations

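The driver that marks the sorted cells had a rhythm of its own. The Gal4 sequence in the table ranged from 42.6 TPM at ZT10 to 224 TPM at ZT22 at 18 °C (3.43-fold, peak ZT20.1, limma adjusted p = 0.00154 when fitted among the genes, 0.00631 without the 4 libraries low in fmt). In HC25 it varied 3.77-fold with a peak at ZT20.9 (adjusted p = 0.00658), and in LC25 2.33-fold with a peak at ZT21.5 (adjusted p = 0.0656). The GFP sequence it drives ranged from 11071 to 23634 TPM at 18 °C and did not pass (adjusted p = 0.369), nor did Pdf (adjusted p = 0.962), whose promoter the driver uses.

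Some transcripts were high in a single library of the 18 °C course. CNMa was at 535 TPM at ZT24 and at most 10.7 TPM in the other 11 libraries. ITP, an ion transport peptide gene of other clock neurons, was at 111 TPM at ZT18 and at most 3.75 TPM elsewhere. NPF was at 1185 TPM at ZT02 and at most 538 TPM elsewhere. None of these 3 genes passed as rhythmic.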
